A study of Mus musculus with 6 samples.

Results

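The collagen chains are the genes that encode the polypeptides of the collagens, and they were chosen as every gene of the bulk RNA-seq tables whose symbol reads Col, a number, the letter a and a number. This rule found 41 of the 16279 genes listed for either cell type. Of these 41 chains, 15 were listed for mouse embryonic stem cells (mESCs) and 40 for cardiac precursor cell cultures (CPCCs), and 14 were listed for both. By the usual classes, 11 are fibrillar chains, 6 are basement membrane chains of type IV, 3 are network chains, 7 are FACIT chains, 5 are beaded filament chains of type VI, 2 are multiplexins, 1 forms anchoring fibrils, 4 span the plasma membrane and 2 belong to no larger class. Genes of 3 further chains, Col9a1, Col20a1 and Col6a6, are listed in neither table.

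The study asked how the alleles of mouse genes are used along the cardiac lineage, and it compared 3 libraries of mESCs with 3 of CPCCs. Both cell types are male and of the F1 strain C57BL/6 x CAST/EiJ in the labels, with a C57BL/6J mother and a CAST/EiJ father in the study's methods, so the mESC controls carry the same hybrid genome as the CPCCs and neither group carries an added allele. The mESCs were clones, each grown from a single cell of a different blastocyst line, kept without feeders in medium with 2 inhibitors (2i) and LIF. The CPCCs were made in vitro from those clones by hanging drops and embryoid bodies in medium with ascorbic acid, which is a cofactor of the enzymes that hydroxylate collagen. They were then dissociated, grown on gelatin in serum with EGF and Fgf2, and taken at the fourth passage. CPCCs are therefore mixed cultures and not a sorted cell type. In bulk libraries, more cells of a type and more RNA per cell cannot be told apart.

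Collagens are extracellular proteins in which 3 chains wind around each other into a helix rich in glycine and hydroxyproline. Fibrillar chains assemble into the banded fibrils that give connective tissue its tensile strength, type IV chains form the sheet of basement membranes, and FACIT chains attach to the surface of fibrils. In the heart, types I and III make up most of the interstitial matrix laid down by fibroblasts, type IV surrounds the muscle cells, and in cartilage type II fibrils carry types IX and XI.

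Libraries held between 6442639 and 6907330 counts for mESCs (S01 to S03) and between 8468819 and 11436062 for CPCCs (S04 to S06). Levels are given as CPM, counts per 1000000 of a library's counts in the genes of both tables, scaled by TMM over those genes. Chains of 1 table were put over the same total, which leaves out their own counts. A gene appears in a table only with at least 10 counts over its 3 libraries. A chain missing from a table is therefore given against a floor of 3 counts per library, which averaged 0.448 CPM in mESCs and 0.335 CPM in CPCCs. All 8 mESC markers were lower in CPCCs, and their summed level lay between 3978 and 4127 CPM in mESCs and between 120.4 and 273.1 CPM in CPCCs. The 10 cardiac precursor markers summed to at most 4.68 CPM in mESCs and to 438.8, 130.6 and 147.9 CPM in S04, S05 and S06. Most of that sum came from the sarcomere genes Actc1, at 150.6 CPM on average, and Tnnt2, at 51.6 CPM. Of the transcription factors, Mef2c, Hand2, Hand1 and Nkx2-5 were listed for CPCCs alone, at means that ran from 14.0 CPM for Mef2c to 0.836 CPM for Nkx2-5. Gata4 and Isl1 were not called, at 3.46 and 1.96 CPM in CPCCs, and Tbx5 was listed for mESCs alone. CPCC is used below as the label of these libraries.

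The regions before the starts of 4 chains that were high in CPCCs are shown because these chains were among the highest there. They are RefSeq sequences on GRCm38.p6, taken within 250 bases before the start that the tables also give, 5′ to 3′ on the strand of the gene, with bases of annotated exons left out. Capitals mark matches on either strand to the TATA box TATAAA, the CCAAT box and the GC box GGGCGG.
Col1a2, chr6:4505370-4505492, plus strand: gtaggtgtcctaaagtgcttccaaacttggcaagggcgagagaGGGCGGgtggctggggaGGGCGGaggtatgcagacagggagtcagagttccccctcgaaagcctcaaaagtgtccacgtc
Col3a1, chr1:45311288-45311537, plus strand: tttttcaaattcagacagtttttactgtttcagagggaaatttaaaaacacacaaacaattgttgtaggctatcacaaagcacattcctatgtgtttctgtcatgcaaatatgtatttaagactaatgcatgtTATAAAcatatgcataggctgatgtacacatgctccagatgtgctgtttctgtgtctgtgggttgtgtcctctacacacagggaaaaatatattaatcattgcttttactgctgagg
Col5a1, chr2:27886175-27886424, plus strand: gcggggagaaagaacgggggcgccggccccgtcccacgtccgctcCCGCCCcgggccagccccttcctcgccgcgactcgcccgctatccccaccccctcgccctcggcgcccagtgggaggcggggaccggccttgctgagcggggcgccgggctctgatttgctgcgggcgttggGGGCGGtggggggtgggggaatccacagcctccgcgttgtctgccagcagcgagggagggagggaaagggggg
Col8a1, chr16:57754738-57754987, minus strand: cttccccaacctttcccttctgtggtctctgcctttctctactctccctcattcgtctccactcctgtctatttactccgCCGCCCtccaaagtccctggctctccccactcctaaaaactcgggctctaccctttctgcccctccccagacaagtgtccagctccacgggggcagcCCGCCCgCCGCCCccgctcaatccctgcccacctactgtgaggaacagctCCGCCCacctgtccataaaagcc
The GC box GGGCGG was found 2 times for Col1a2 and Col5a1 and 4 times for Col8a1, against 32.7% of all 32851 promoters with at least 1. Col3a1 held none and instead held 1 TATAAA, 117 bases before the start, a motif found in 12.4% of promoters. Col1a2 also has 1 CCAAT, found in 33.8% of promoters, 109 bases before its start, within the exonic bases left out here. The 4 regions thus shared no motif of the 3 searched. Regions of Col4a1 and Col4a2, also among the highest chains, are not shown. Col4a1 held 1 CCAAT and no GC box, and Col4a2 held 1 CCAAT and 2 GC boxes. A promoter was given for 32 of the 41 chains, and a match is a description of letters and not a binding site.

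Collagen transcripts took a small share of mESC libraries and a large one of CPCC libraries. In mESCs the chains held 0.0281%, 0.0295% and 0.0244% of the counts of S01, S02 and S03, a mean of 0.0273% ± 0.00265 (SD, n = 3). In CPCCs they held 1.59%, 1.80% and 1.32% of S04, S05 and S06, a mean of 1.57% ± 0.242 (SD, n = 3). The lowest CPCC library lay far above the highest mESC library, and fibrillar chains alone held 0.905%, 1.13% and 0.804% of the 3 CPCC libraries. The 8 chains with the highest CPM, which were Col1a1, Col1a2, Col8a1, Col3a1, Col4a1, Col5a1, Col4a2 and Col5a2, made up between 86.6% and 87.6% of the CPCC collagen counts.

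**Figure D1:**
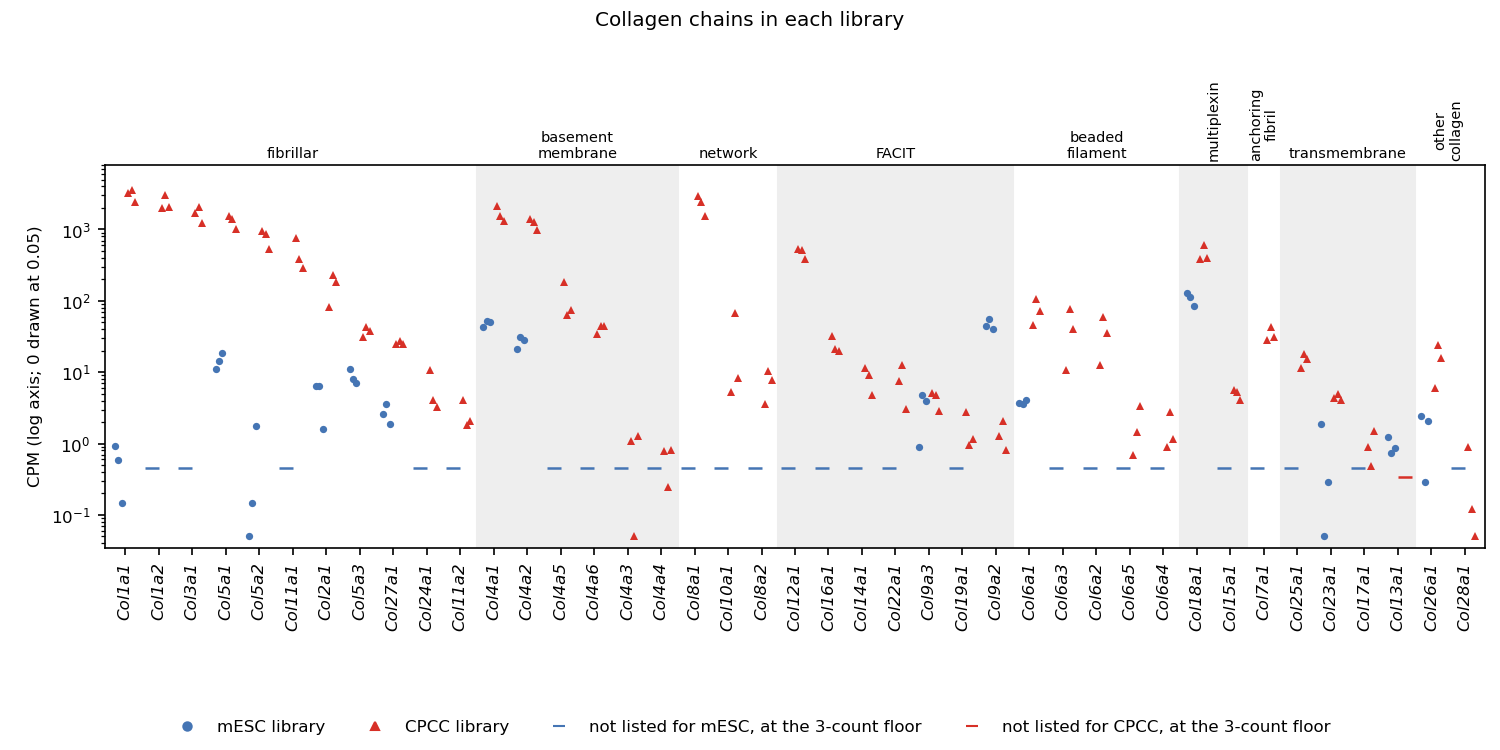
CPM of the 41 collagen chains (log axis) in each mESC library (circles) and CPCC library (triangles), ordered by class and, within a class, by CPCC level, with a dash at the floor of 3 counts where a chain was not listed. CPCC triangles stand above the mESC points for 12 of the 14 chains listed for both, stand below them for Col9a2 and mix with them for Col9a3.

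Of the 14 chains listed for both cell types, all passed the filter on low counts, 12 were higher in CPCCs, 1 was lower (Col9a2) and 1 was not called (Col9a3) at an adjusted p under 0.05 in edgeR. Over all 12471 genes tested, 61.4% were called, 31.7% higher and 29.7% lower. Each of the 12 was more than 4-fold higher, a size that 14.3% of genes reached. The median log2 fold change was 3.78 over the 14 chains and 0.03 over all genes tested. For the same 12 chains every CPCC library lay above every mESC library, which held for 34.1% of the genes in both tables, and the reverse order of Col9a2 held for 33.4%. Another 26 chains, 63.4% of the 41, were listed for CPCCs only, against 15.5% of all genes, and 1 was listed for mESCs only, against 4.67% of all genes. Those 26 are given by bounds. Their mean CPCC level was at least 10 times the floor for 18 of the 26 and at least 100 times for 6, against 27.1% and 4.85% of the genes listed for CPCCs only. These bounds set a mean level against a fixed floor, so they cover neither counting error nor the spread between libraries.

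**Figure D2:**
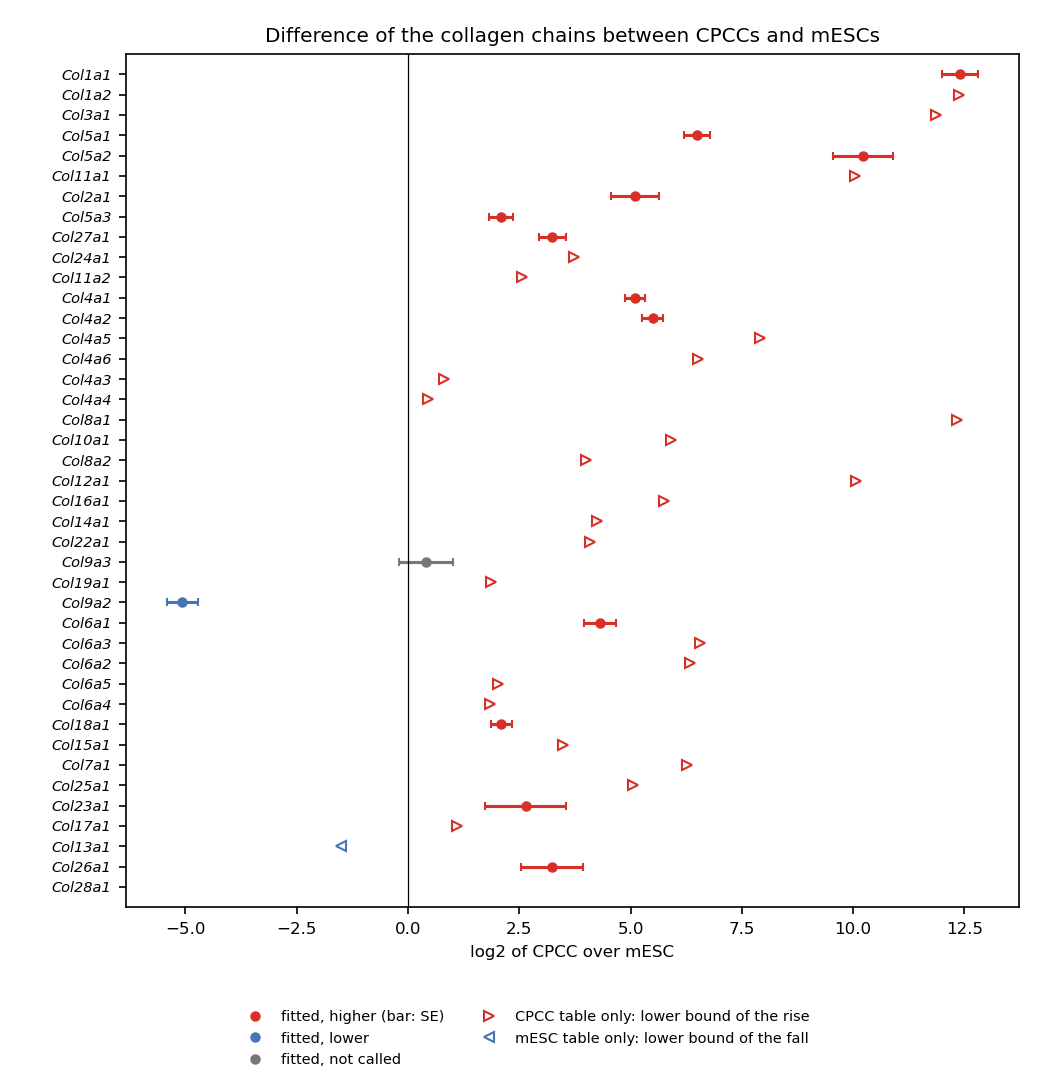
Log2 of CPCC over mESC for the chains in the same class order, with filled circles and bars for fitted log2 fold changes and their SE, and open triangles for bounds against the 3-count floor. The fitted values run from -5.07 for Col9a2 to 12.40 for Col1a1, and Col28a1 has no symbol because its CPCC mean is under the mESC floor.

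Every fibrillar chain listed for both cell types was higher in CPCCs (6 of 6), and the other 5 fibrillar chains were listed for CPCCs only. Type I collagen, the main collagen of bone, tendon and scar, had the largest rise among the chains tested in the fit on all libraries. Without S03 the rise of Col5a2 was larger, at a log2 fold change of 13.09 against 11.95 for Col1a1. Col1a1 stood at 0.927, 0.588 and 0.146 CPM in S01, S02 and S03 and at 3209, 3535 and 2402 CPM in S04, S05 and S06. The groups did not overlap, with a log2 fold change of 12.40 (SE 0.40, edgeR adjusted p = 7.86e-07). Only 11 counts over the 3 mESC libraries stand behind this fold, and the ratio of the summed counts was 5571 with an exact 95% interval of 3113 to 11160. Col1a2, the partner chain, was listed for CPCCs alone, at 1996, 3054 and 2074 CPM, and was at least 5302-fold higher than the mESC floor. Col3a1, the type III chain of distensible tissues such as vessel walls, was also listed for CPCCs alone, at 1703, 2075 and 1233 CPM, and was at least 3729-fold higher.

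Type V and type XI chains join type I and type II fibrils and set their diameter. Col5a1 stood at 10.97, 14.3 and 18.7 CPM in the mESC libraries and at 1526, 1416 and 1021 CPM in the CPCC libraries. This was a log2 fold change of 6.49 (SE 0.28, edgeR adjusted p = 1.31e-06), with no overlap between the cell types. Col5a2 stood at 0, 0.147 and 1.76 CPM in mESCs and at 957, 869 and 541 CPM in CPCCs. Its log2 fold change was 10.22 (SE 0.67, edgeR adjusted p = 5.10e-06) and rested on 13 mESC counts, almost all in S03. The summed counts gave a ratio of 1231 with an exact 95% interval of 720 to 2312, and the fitted value moved between 9.67 and 13.09 when single libraries were left out. Col5a3 rose less, from a mean of 8.70 ± 2.15 CPM to 37.1 ± 5.93 CPM (log2 fold change 2.09, SE 0.26, edgeR adjusted p = 0.000167). Col11a1 was listed for CPCCs alone at 747, 385 and 287 CPM, at least 1056-fold above the mESC floor, and was highest in S04.

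Col2a1, the type II chain that defines cartilage fibrils, stood at 6.33, 6.47 and 1.61 CPM in mESCs and at 82.9, 228 and 183 CPM in CPCCs. The groups did not overlap (log2 fold change 5.10, SE 0.54, edgeR adjusted p = 6.08e-05), and S04 was the lowest CPCC library. Of the 8 cartilage markers, 3 were tested, 2 were higher in CPCCs and 1 was not called, and the summed level of the listed ones was between 4.53 and 10.7 CPM in mESCs and between 54.9 and 74.8 CPM in CPCCs. Of the transcription factors on this list, Sox9 and Sox5 were listed for CPCCs alone at 23.7 and 11.3 CPM. Sox6 rose from 1.18 to 18.2 CPM. Of the genes of the cartilage matrix itself, Matn3 rose from 1.14 to 10.08 CPM and Hapln1 was listed for CPCCs alone at 1.45 CPM. Acan was not called, at 3.81 CPM in mESCs and 1.26 CPM in CPCCs, while Matn1 was listed for mESCs alone and Comp in neither table. The part of cartilage-like cells in the Col2a1 difference was not tested. Col27a1, a minor fibrillar chain, rose from 2.69 ± 0.816 to 25.6 ± 1.29 CPM (log2 fold change 3.24, SE 0.31, edgeR adjusted p = 3.42e-05). Col24a1 and Col11a2 were listed for CPCCs alone at means of 5.99 and 2.65 CPM.

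Of the 10 fibroblast and mesenchyme markers, 3 were tested, with Pdgfrb and Thy1 higher in CPCCs and Pdgfra not called. Another 6, among them Postn and Dcn, were listed for CPCCs only, and Tcf21 was in neither table. The 9 listed markers summed to between 11.1 and 18.6 CPM in mESCs and to 552, 755 and 425 CPM in S04, S05 and S06. Their order over the CPCC libraries, with S05 highest and S06 lowest, was also that of Col1a1 and Col3a1, but not that of Col1a2 or Col5a1. The part of such cells in the fibrillar rise was not tested.

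Both main basement membrane chains rose, and the other 4 type IV chains were listed for CPCCs only. Col4a1 stood at 43.1, 51.3 and 50.3 CPM in mESCs and at 2121, 1540 and 1306 CPM in CPCCs (log2 fold change 5.10, SE 0.23, edgeR adjusted p = 1.38e-06). Col4a2, the chain that pairs with it in nearly all basement membranes, stood at 21.3, 30.7 and 28.1 CPM and at 1396, 1259 and 976 CPM (log2 fold change 5.50, SE 0.23, edgeR adjusted p = 1.28e-06). Neither pair of groups overlapped, and S04 was the highest CPCC library for both chains. Col4a5 was listed for CPCCs alone at 185, 63.3 and 74.8 CPM, at least 240.2-fold above the mESC floor, again highest in S04. Col4a6, the type IV chain around smooth muscle, averaged 40.8 ± 6.04 CPM and was at least 91.0-fold above the floor. Col4a3 and Col4a4, known from the filtration barrier of the kidney, averaged 0.785 and 0.613 CPM, close to the floor.

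Markers of primitive and parietal endoderm, cells that secrete much type IV collagen and laminin, were read beside the type IV chains. Of the 12 markers, 9 were tested, 8 were higher in CPCCs and Sox7 was not called, and 2 were listed for CPCCs only. They summed to between 179 and 201.1 CPM in mESCs and to 1374, 1152 and 1008 CPM in S04, S05 and S06. The order of these sums over the CPCC libraries, which is also that of Col4a1 and Col4a2, depended on the laminin chain Lamb1. Without Lamb1 the sums were 774.5, 798 and 713 CPM. Of the 12 markers, 5 were highest in S04, 3 in S05 and 4 in S06. Dab2 and Thbd kept the order of Col4a1 and Col4a2, at 187.9, 119.8 and 98.9 CPM and at 115.0, 49.8 and 36.3 CPM. Lama1, Lamc1 and Foxa2 were lowest in S04. The defining factors Gata6, Foxa2 and Sox17 stood in S04, S05 and S06 at 40.1, 7.52 and 7.34 CPM, at 5.96, 47.1 and 17.0 CPM, and at 7.75, 0.728 and 7.11 CPM. The part of endoderm-like cells in the type IV rise was not tested.

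The type IV genes lie in head-to-head pairs on 3 chromosomes. The starts of Col4a1 (chr8:11198423-11312827, minus strand) and Col4a2 (chr8:11312805-11449288, plus strand) overlap by 22 bases. Starts of Col4a4 and Col4a3 on chromosome 1 are 71 bases apart, and those of Col4a6 and Col4a5 on chromosome X are 1342 bases apart. In CPCCs the means of a pair were 1655 and 1210 CPM for Col4a1 and Col4a2, 0.613 and 0.785 CPM for Col4a4 and Col4a3, and 40.8 and 108 CPM for Col4a6 and Col4a5. On chromosome 1, Col3a1 and Col5a2 also neighbour each other, end to end, with 24624 bases between them, and both were among the highest chains in CPCCs. Whether counting used strand is not given in the sources used here, so reads in the bases that Col4a1 and Col4a2 share cannot be assigned to either.

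The network chains were all listed for CPCCs only. Col8a1, a short chain of the hexagonal lattice under vessel endothelium and in the cornea, stood at 2954, 2449 and 1545 CPM and was at least 5171-fold above the mESC floor. Per kilobase of coding sequence it was the highest of all collagen chains in CPCCs, with 29.3%, 23.8% and 22.2% of the collagen total. That place depends on the length used, because much of its transcript lies outside the coding sequence. Per transcript length Col8a1 held 16.3% ± 2.76 beside 18.7% ± 0.484 for Col1a1 and 16.3% ± 3.28 for Col1a2, values that differ by less than the spread between libraries. Its partner Col8a2 was far lower, at 3.58, 10.3 and 7.68 CPM, at least 16.1-fold above the floor. Col10a1, the chain of hypertrophic cartilage, stood at 5.27, 67.2 and 8.37 CPM, so that its mean of 26.9 ± 34.9 CPM came mainly from S05.

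The FACIT chains did not all move one way. Col12a1, which binds to type I fibrils in tendon and other dense tissue, was listed for CPCCs alone at 537, 520 and 384 CPM, at least 1072-fold above the mESC floor. Col16a1, Col14a1, Col22a1 and Col19a1 were listed for CPCCs alone at lower means of 24.3, 8.49, 7.68 and 1.63 CPM. The type IX chains, which coat type II fibrils in cartilage, differed from this. Col9a2 was the only chain called lower in CPCCs, at 43.7, 56.2 and 40.2 CPM in mESCs, against 1.29, 2.06 and 0.802 CPM in CPCCs. The groups did not overlap (log2 fold change -5.07, SE 0.35, edgeR adjusted p = 6.63e-06). Col9a3 stood at 0.896, 4.83 and 3.93 CPM in mESCs and at 5.13, 4.86 and 2.83 CPM in CPCCs. These ranges overlapped and it was not called (log2 fold change 0.40, SE 0.61, edgeR adjusted p = 0.588), with a value of -0.04 when S01 was left out. Col9a3 also shares 234 exonic bases with Tcfl5 on the opposite strand, so part of its counts may come from that gene.

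All 5 type VI chains were listed for CPCCs, and only Col6a1 was listed for mESCs. Type VI forms beaded filaments that link cells to the fibrils around them. Col6a1 stood at 3.71, 3.53 and 4.10 CPM in mESCs and at 45.7, 108 and 73.1 CPM in CPCCs, without overlap (log2 fold change 4.31, SE 0.35, edgeR adjusted p = 1.51e-05). Col6a2 stood at 12.8, 59.5 and 35.5 CPM in CPCCs, at least 80.3-fold above the mESC floor. Col6a3 stood at 10.8, 76.2 and 40.6 CPM, at least 94.9-fold above it. The 3 classic chains kept 1 order over the libraries, lowest in S04 and highest in S05. Col6a5 and Col6a4 averaged 1.83 and 1.61 CPM.

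Col18a1, the basement membrane multiplexin whose end piece is endostatin, was the collagen chain with the highest CPM in mESCs. It stood at 129.6, 114 and 85.0 CPM there and at 389, 607 and 404 CPM in CPCCs (log2 fold change 2.09, SE 0.24, edgeR adjusted p = 8.99e-05). The groups did not overlap, although this rise was among the smallest of the chains called. Col15a1, the other multiplexin, was listed for CPCCs alone at 5.04 ± 0.811 CPM. Col7a1, which forms the anchoring fibrils below epithelia, was listed for CPCCs alone at 34.4 ± 8.17 CPM, at least 76.8-fold above the mESC floor.

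Chains of the plasma membrane and the remaining chains stayed low in both cell types. Col25a1, a membrane chain expressed in neurons and developing muscle, was listed for CPCCs alone at 15.0 ± 3.29 CPM. Col23a1 stood at 1.85, 0 and 0.293 CPM in mESCs and at 4.37, 4.97 and 4.13 CPM in CPCCs (log2 fold change 2.64, SE 0.91, edgeR adjusted p = 0.0308). This call was lost without S02 (adjusted p = 0.0588), S03 (0.111) or S05 (0.0778) in edgeR, and without S01 the log2 fold change was 4.80 (adjusted p = 0.00499). Col13a1 was the only chain listed for mESCs alone, at 1.24, 0.736 and 0.878 CPM, at least 2.83-fold above the CPCC floor. Col26a1 rose from 1.60 ± 1.15 to 15.3 ± 8.87 CPM (log2 fold change 3.24, SE 0.70, edgeR adjusted p = 0.00339), and Col17a1 and Col28a1 averaged 0.957 and 0.339 CPM in CPCCs.

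The make-up of the collagen transcripts differed between the cell types. Per kilobase of coding sequence, mESC collagen consisted on average of 34.9% FACIT, 29.7% multiplexin, 21.6% basement membrane and 8.94% fibrillar chains. Nearly all of the first class was Col9a2, with 30.4%, 36.2% and 31.3% of the total in S01, S02 and S03, and all of the second was Col18a1, with 34.9%, 28.4% and 25.7%. In CPCCs fibrillar chains held 54.3% ± 3.61, network chains 25.5% ± 3.53, basement membrane chains 14.7% ± 2.00 and FACIT chains 1.57% ± 0.0587. Per transcript length the CPCC shares were 59.8%, 16.7%, 16.9% and 1.85%, so that network and basement membrane chains changed places. In mESCs multiplexin then led FACIT chains, with 35.7% against 31.1%. Chains missing from a table entered these shares as 0.

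**Figure D3:**
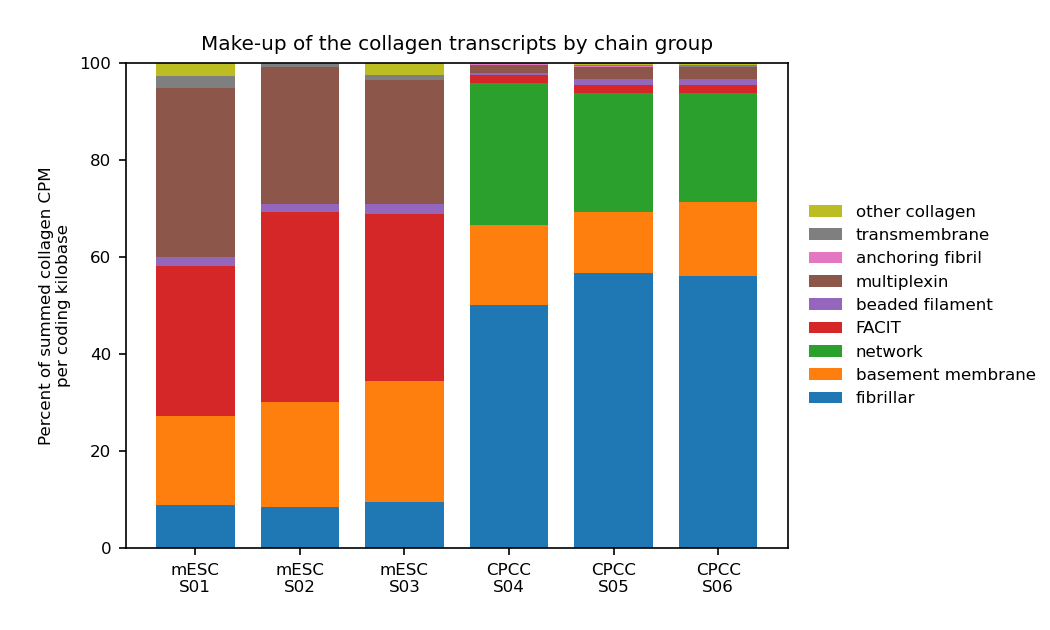
Percent of the summed collagen CPM per coding kilobase held by each class of chain, as 1 stacked bar per library. FACIT and multiplexin chains fill most of the 3 mESC bars, and fibrillar chains hold between 50.2% and 56.7% of the 3 CPCC bars.

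Chains that assemble together were compared as ratios of their CPM per coding kilobase within each library. Col1a1 chains outnumber Col1a2 chains in the type I heterotrimer, and the transcript ratio Col1a1 to Col1a2 was 1.52, 1.09 and 1.09 in S04, S05 and S06. Col5a1 to Col5a2 was 1.30, 1.33 and 1.54, and Col6a1 to Col6a2 was 3.60, 1.83 and 2.08. Without the length correction the type V ratio averaged 1.70 in place of 1.39. Col8a1 to Col8a2 was 776, 223 and 189, so those chains were far from equal. Both chains were listed for both cell types in 2 pairs. Col4a1 to Col4a2 stood at 2.07, 1.71 and 1.83 in mESCs and 1.55, 1.25 and 1.37 in CPCCs. All 3 CPCC ratios lay below all 3 mESC ratios, a difference of -0.43 on the log2 scale. Col5a1 to Col5a2 stood higher in mESCs, at 79.0 in S02 and 8.69 in S03, and at least 19.3 in S01, where Col5a2 had no count and was set to 3. The Col5a2 side of these ratios is 0, 1 and 12 counts. The ratio of the summed counts per coding length was 18.5 in mESCs, with an exact 95% interval of 10.7 to 35.2. In CPCCs it was 1.36, with an interval of 1.34 to 1.38. These intervals cover counting error only, and the CPCC library ratios of 1.30, 1.33 and 1.54 all lay outside the CPCC interval. All 3 CPCC ratios again lay below all 3 mESC ratios, a difference of -4.10 on the log2 scale that was -3.23 without S02 and -4.82 without S03. The two-sided exact permutation test gave p = 0.1 for each of the 2 pairs, also after adjustment over both, and this is the smallest value that 3 against 3 libraries allow.

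The CPCC libraries differed from each other more in some classes than in others. For the 24 chains with a mean of at least 10 CPM, the median coefficient of variation over the 3 CPCC libraries was 25.8%, beside 19.7% over the 9951 genes of that level. S05 was the highest library for 15 of the 24 chains and S04 for 9, and S06 for none. S04 was the lowest for 12, S06 for 11 and S05 for 1. Relative to the mean of S05 and S06, the level in S04 was 2.67 times as high for Col4a5, 2.23 for Col11a1, 1.54 for Col16a1 and 1.49 for Col4a1. It was 0.186 of that mean for Col6a3, 0.270 for Col6a2, 0.306 for Col26a1 and 0.403 for Col2a1. For Col10a1 it was 0.140, a value set by S05, since S04 stood at 0.630 of S06 alone. S04 was also the library with the highest summed cardiac precursor markers and, through Lamb1, endoderm markers. The CPCC columns could not be matched to parent clones, so a clone and a culture cannot be told apart in these differences.

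**Figure D4:**
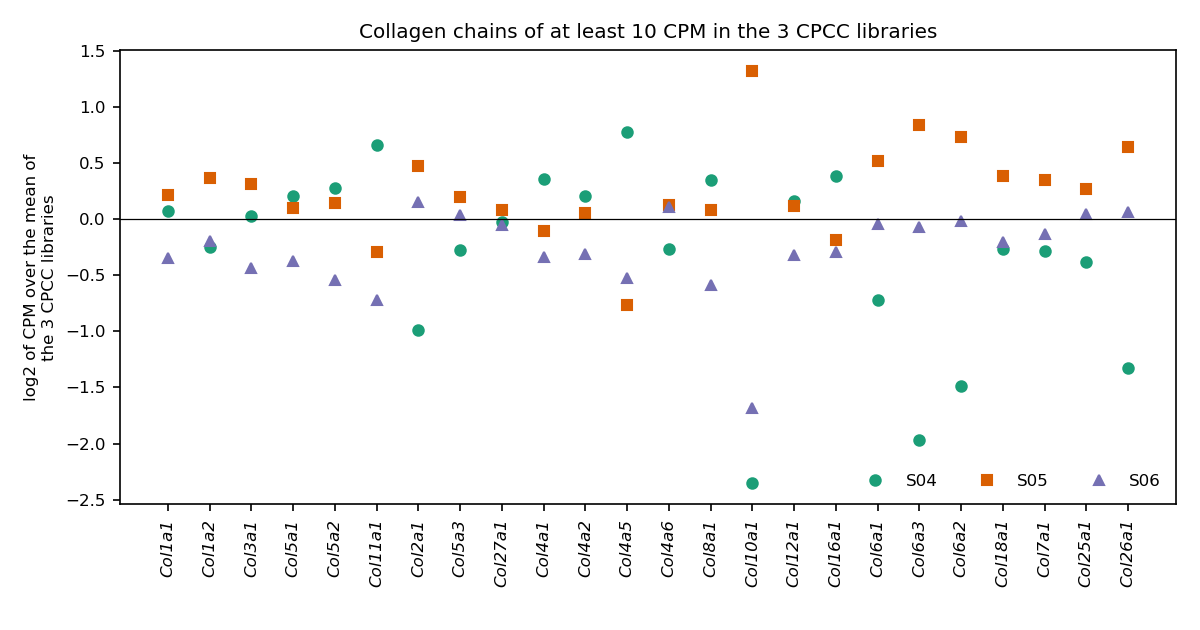
Log2 of CPM over the mean of the 3 CPCC libraries for the 24 chains of at least 10 CPM, in class order, with S04 as circles, S05 as squares and S06 as triangles. S04 lies lowest for the type VI chains, Col2a1, Col10a1 and Col26a1, and highest for Col11a1 and Col4a5.

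Genes that make, process and bind collagen were described from 3 lists, which together hold 44 genes. Of the 34 tested, 27 were higher in CPCCs and 3 lower, beside the 31.7% and 29.7% of all genes. Among 17 tested genes of folding and hydroxylation, 14 rose, led by the chaperone Fkbp10 (log2 fold change 8.38), the proline hydroxylase subunit P4ha3 (6.04) and P3h4 (4.62). Serpinh1, the collagen chaperone HSP47, rose from 83.2 ± 6.97 to 1882 ± 321 CPM. Crtap and Colgalt1 fell by 0.58 and 0.68 on the log2 scale. The Crtap call was lost when S01, S02, S05 or S06 was left out, with edgeR adjusted p between 0.0522 and 0.0859. Among 12 tested genes of secretion and processing, 9 rose, led by the procollagen protease Bmp1 (7.97) and the crosslinking enzymes Loxl1 (6.79) and Loxl2 (6.78), and the enhancer Pcolce2 fell by 2.85. Mia3, also among the 9, lost its call without S01 (edgeR adjusted p = 0.0571) or S02 (0.0613). Lox was listed for CPCCs alone, at least 1727-fold above the mESC floor. Among 5 tested receptors, 4 rose, led by Ddr2 (5.72), the integrin chain Itgb1 (4.53) and Itga1 (4.14).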

How the data were processed

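PolyA+ RNA of 3 mESC and 3 CPCC samples was turned into SMART-Seq v4 cDNA and Nextera XT libraries and sequenced in paired ends. The authors deposited expected counts, estimated counts per gene that are not normalized, with a separate table for mESCs and CPCCs. Of a library's values, 17.9% to 21.5% were not whole. Per the labels' processing notes STAR 2.7 and mm10 were used, while the counter and its use of strand are not given in the sources used here. Genes under 10 counts over the 3 libraries of a table are left out of it. Columns carry no replicate numbers, so libraries are named S01 to S06.

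Counts were rounded to whole numbers. The 13001 genes of both tables were filtered with filterByExpr, which removed 530, and fitted with edgeR 4.0.16 in R 4.3.3 (quasi-likelihood test, TMM, no covariates), with Benjamini-Hochberg adjustment over all 12471 genes and a threshold of 0.05. SE is the size of the log2 fold change divided by the square root of the F statistic of that test. DESeq2 gave a larger SE for Col1a1 (0.496) and Col5a2 (1.279), whose mESC counts are few. It gave a smaller SE for Col2a1, Col5a1 and Col26a1. Chains in 1 table were bounded by their mean level over that of 3 counts per library, with no interval around the bound. The exact 95% intervals of count ratios cover counting error only. Coding length is the longest coding sequence in the GENCODE annotation of GRCm38, and GRCm38 positions are those of the tables, whose ends often lie 1 base past the last. The scripts were tested on simulated data. P-values measure the spread between the libraries of each cell type, in which a clone and a culture cannot be told apart.

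The chains, their classes and the lists were chosen with earlier results of these data known. Values in every library are given for chains of at least 100 CPM in either cell type, chains that fell, were not called or were listed for mESCs only, and partner chains. Of each pathway list the 3 largest rises and every fall are named, and Col10a1, Col6a3, Col23a1, Serpinh1, Lox and the promoters of Col5a1 and Col8a1 were added after their values were seen. Alternatives were DESeq2 1.42.0, upper-quartile scaling, no TMM, whole-table library sizes, other filters, missing genes set to 0 or 3 counts, and each library left out. Transcript length in place of coding length and another stand-in for a missing count in ratios were added after seeing the data. Figures were drawn with matplotlib 3.10.9 in Python 3.11.15.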

Additional observations from a re-analysis of the deposited data

How the results depend on the processing

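Counts of 12 chains higher and 1 lower were also found with DESeq2, upper-quartile scaling, no filter, whole-table library sizes and no TMM. With each library left out, between 11 and 12 chains were higher, and 1 was lower. Requiring at least 10 counts in every library left 8 chains, all higher and 0 lower, because Col9a2 has fewer counts in CPCCs, with a median log2 fold change of 4.77. With missing genes at 0 or at 3 counts, 33 chains were fitted and 31 came out higher, with medians of 8.92 and 5.03, beside 36.4% and 34.8% of all 13630 genes. The 19 chains added are compared there with a set count and passed the filter through CPCCs, so their direction was fixed by construction. The median ranged from 3.59 to 4.55 over the fits that left out 1 library, the highest without S01. Without Col1a1, the CPCC collagen share was 1.28% in place of 1.57%. Col9a3 ranged from -0.036 without S01, a reversal whose cause was not tested, to 0.815 with other libraries left out. The Col23a1 call was lost without S02, S03 or S05, at log2 fold changes of 2.06, 2.27 and 2.57, and its log2 fold change was 4.80 without S01. With the missing Col5a2 count set to 1, the type V ratio difference was -4.62. The 27 rises and 3 falls of the other collagen genes became 26 to 28 and 2 to 3 with a library left out. No paired analysis was possible because the columns carry no replicate numbers. Counts limit the mESC side: 10 counts over 3 libraries are the least a listed gene can have, and a level of 0.448 CPM there rests on about 3 counts in a library.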
